A study of Mus musculus with 12 samples.

Results

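The 35 genes described here encode the glycolytic pathway from glucose entry to lactate export together with well-known genes of the hypoxia response, among 23735 gene models measured by mRNA sequencing in mouse hair follicle stem cells. They were picked because many of them were higher in cells in which the transcription factor Foxc1 was knocked out. Their knockout folds are therefore given as a description and support nothing by themselves. Each symbol was found on 1 row of every table, and all 35 genes were measurable in every comparison. By role they fall into 3 genes of glucose entry and phosphorylation, 12 glycolytic enzymes, 2 enzymes of fructose 2,6-bisphosphate, 5 genes of lactate and pyruvate fate, 3 genes of the hypoxia-inducible factor (HIF) and its prolyl hydroxylases, and 10 further hypoxia-induced genes.

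Hair follicle stem cells reside in the bulge of the follicle, rest during telogen and fuel regrowth when a new hair cycle enters anagen. Glycolysis turns glucose into pyruvate, which lactate dehydrogenase A reduces to lactate and monocarboxylate transporters carry out of the cell, and lactate dehydrogenase activity is known to bear on the activation of these stem cells. When oxygen is plentiful, the prolyl hydroxylases encoded by Egln1 and Egln3 mark the HIF-1 alpha protein for destruction. When oxygen is short, HIF-1 alpha persists and switches on many glycolytic genes as well as Vegfa, Bnip3 and Egln3, largely without a change in its own RNA.

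RNA came from stem cells sorted by flow cytometry from dorsal skin, 12 libraries in 7 groups. In anagen, at postnatal day 30, 2 libraries of FOXC1-Sox9CreER-heterozygous males (anagen Het) and 2 of FOXC1-Sox9CreER-iKO males (anagen iKO) shared a Black Swiss/ C57BL/6 mix background, tamoxifen given intraperitoneally and a YFP reporter. In second telogen, 2 WT and 2 FOXC1-K14Cre-cKO libraries (telogen WT and telogen cKO) were Black Swiss, each group made of 1 male (day 42) and 1 female (day 46), and 2 libraries of FOXC1-Sox9CreER-iKO males (telogen iKO) were of the mixed background at day 60. K14Cre acts in basal cells throughout the skin epithelium, whereas Sox9CreER acts in Sox9-expressing cells after tamoxifen. A first telogen library (about day 23) and an anagen-substage II library (about day 26) came from Agouti females, 1 library each, whose cell type label reads Shh-Het while their titles read WT. Telogen iKO had no control of its own strain, age and driver and was set against telogen WT.

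Foxc1 itself fell in every knockout group, from 22.5 FPKM (fragments scaled to transcript length and library size) in anagen Het to 1.32 in anagen iKO, and from 27.5 in telogen WT to 1.66 in telogen cKO and 3.17 in telogen iKO. Of 12 stem cell markers, 10 lay above 1 FPKM in all 7 groups, Cd34 between 129 and 883 FPKM among them. Krt5 and Krt15 were listed at 0 in some groups where the authors' program gave up on very deep loci, which is no absence. In the 5 groups of 2 libraries, the summed level of 10 endothelial and pericyte markers was 37.1 to 75.7 FPKM, nearly all of it Cspg4, with 7 to 9 markers below 1 FPKM. Fibroblast markers (8 genes) summed to 93.8 to 203 FPKM there but to 2306 in first telogen and 1095 in anagen II. Immune markers (9 genes) summed to 16.5 to 115 FPKM, and to 304 in first telogen. Suprabasal epidermal markers (5 genes) summed to 475 FPKM in anagen Het, 886 in anagen iKO, 3179 in telogen WT, 4901 in telogen cKO and 3494 in telogen iKO. Sebaceous markers (5 genes) summed to 197, 204, 226, 405 and 417 FPKM in the same order of groups. Hair shaft and inner root sheath markers (9 genes) summed to 185, 133, 38.7, 49.2 and 50.5 FPKM in that order. The part of these cells in the results below was not tested, and in bulk RNA fewer cells of a type and less RNA per cell cannot be told apart.

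The promoters of a few of these genes are shown first, with the short sequence to which HIF binds marked where present. Each line gives the 250 bases before the transcription start on the gene's own strand, from RefSeq on GRCm38.p6, with the letters ACGTG or GCGTG of the core hypoxia response element in capitals on either strand (read as CACGT or CACGC when on the other strand). The windows are Slc16a3 chr11:120948817-120949066 (+), Pgk1 chrX:106186850-106187099 (+), the first of 2 listed starts of Ldha chr7:46845554-46845803 (+), Bnip3 chr7:138909507-138909756 (-), Egln3 chr12:54203875-54204124 (-) and Tpi1 chr6:124814159-124814408 (-).
Slc16a3: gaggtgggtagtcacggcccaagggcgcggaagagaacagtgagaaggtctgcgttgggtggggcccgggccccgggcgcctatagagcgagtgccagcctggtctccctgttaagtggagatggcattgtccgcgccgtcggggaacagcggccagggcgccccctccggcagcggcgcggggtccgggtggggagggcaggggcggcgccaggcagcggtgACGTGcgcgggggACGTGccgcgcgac
Pgk1: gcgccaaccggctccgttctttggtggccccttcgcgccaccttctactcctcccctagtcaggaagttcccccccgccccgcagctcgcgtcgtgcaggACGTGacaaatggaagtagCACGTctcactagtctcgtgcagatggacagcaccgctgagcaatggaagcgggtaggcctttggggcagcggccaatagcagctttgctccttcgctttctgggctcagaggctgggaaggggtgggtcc
Ldha: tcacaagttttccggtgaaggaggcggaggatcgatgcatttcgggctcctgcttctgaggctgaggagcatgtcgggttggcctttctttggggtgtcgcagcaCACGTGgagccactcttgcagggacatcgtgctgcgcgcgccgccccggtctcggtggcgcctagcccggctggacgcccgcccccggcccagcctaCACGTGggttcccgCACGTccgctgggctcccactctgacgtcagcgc
Bnip3: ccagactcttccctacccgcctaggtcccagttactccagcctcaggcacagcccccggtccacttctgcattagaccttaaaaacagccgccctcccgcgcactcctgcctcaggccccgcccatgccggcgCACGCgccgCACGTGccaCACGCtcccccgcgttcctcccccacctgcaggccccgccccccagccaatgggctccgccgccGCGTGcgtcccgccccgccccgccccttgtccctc
Egln3: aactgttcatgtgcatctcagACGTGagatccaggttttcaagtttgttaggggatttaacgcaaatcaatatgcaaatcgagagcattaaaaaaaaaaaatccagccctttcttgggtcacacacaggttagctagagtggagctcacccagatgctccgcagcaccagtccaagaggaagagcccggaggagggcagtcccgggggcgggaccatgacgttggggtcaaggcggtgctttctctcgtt
Tpi1: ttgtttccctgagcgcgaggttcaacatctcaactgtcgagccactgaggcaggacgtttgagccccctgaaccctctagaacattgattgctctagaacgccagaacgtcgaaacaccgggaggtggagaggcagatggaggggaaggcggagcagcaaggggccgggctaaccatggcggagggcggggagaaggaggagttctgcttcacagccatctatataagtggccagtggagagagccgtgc
Slc16a3 and Pgk1, whose RNA was higher in all 3 knockout groups, hold 2 matches each. Ldha holds 5, of which 4 come from a pair of CACGTG hexamers, the E-box letters that read as ACGTG on both strands and are also bound by MYC-family factors. Bnip3 holds 5 matches and Egln3 holds 1. Tpi1, a glycolytic enzyme that was higher in both telogen knockouts, holds none in this window, and neither does Gpi1. Genes without a call in any knockout comparison hold matches too, with 2 each in Slc2a1 and Hk2 and 3 in Hif1a. Of the 34 members with a promoter entry, 32 (94.1%) held ACGTG or GCGTG in at least 1 window, against 41.5% of all 27025 genes in the table and 60.7% of the 10055 genes tested in the anagen comparison. ACGTG alone was found in 64.7% of members against 24.8% of those tested genes, and CACGTG in 17.6% against 9.78%. A gene was counted if any of its windows matched, and members had 48 windows for 34 genes, against 32851 for 27025. By window, 40 of the 48 held ACGTG or GCGTG, against 38.6% of all windows. The median GC content was 62.2% in the windows of members and 59.6% in those of tested genes. These shares describe letters in a window, in genes long known for their response to hypoxia. No binding was measured.

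In mm9, the build of the deposited tables, Slc16a3 spans chr11:120809798-120820314, Pgk1 chrX:103382439-103399038, Egln3 chr12:55279968-55304861, Pfkfb3 chr2:11393058-11475556, Vegfa chr17:46153943-46169326 and Hif1a chr12:75008854-75048517. Levels below are the joint table's FPKM, 1 pooled value per group as the authors deposited it, and folds are the authors' own, with a standard error (SE) derived from their test statistic. Genes with a deposited q below 0.05 are referred to as called. In anagen iKO against Het, 10 of the 35 genes were called higher and none lower, with 5.18% of 13716 tested genes called higher and 5.08% lower. In telogen cKO against WT, 15 were called higher and 1 lower, with 3.75% of 13551 tested genes called higher and 2.87% lower. In telogen iKO against the same WT libraries, 20 were called higher and none lower, with 7.01% of 13714 tested genes called higher and 5.88% lower. The median log2 ratio of the 35 genes, with 1 FPKM added to each value, was 0.29 in anagen iKO, 0.70 in telogen cKO and 0.67 in telogen iKO, beside -0.02, 0.00 and -0.02 over all tested genes. The 10, 15 and 20 calls restate how the genes were chosen, and both telogen comparisons share their WT libraries.

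**Figure D1:**
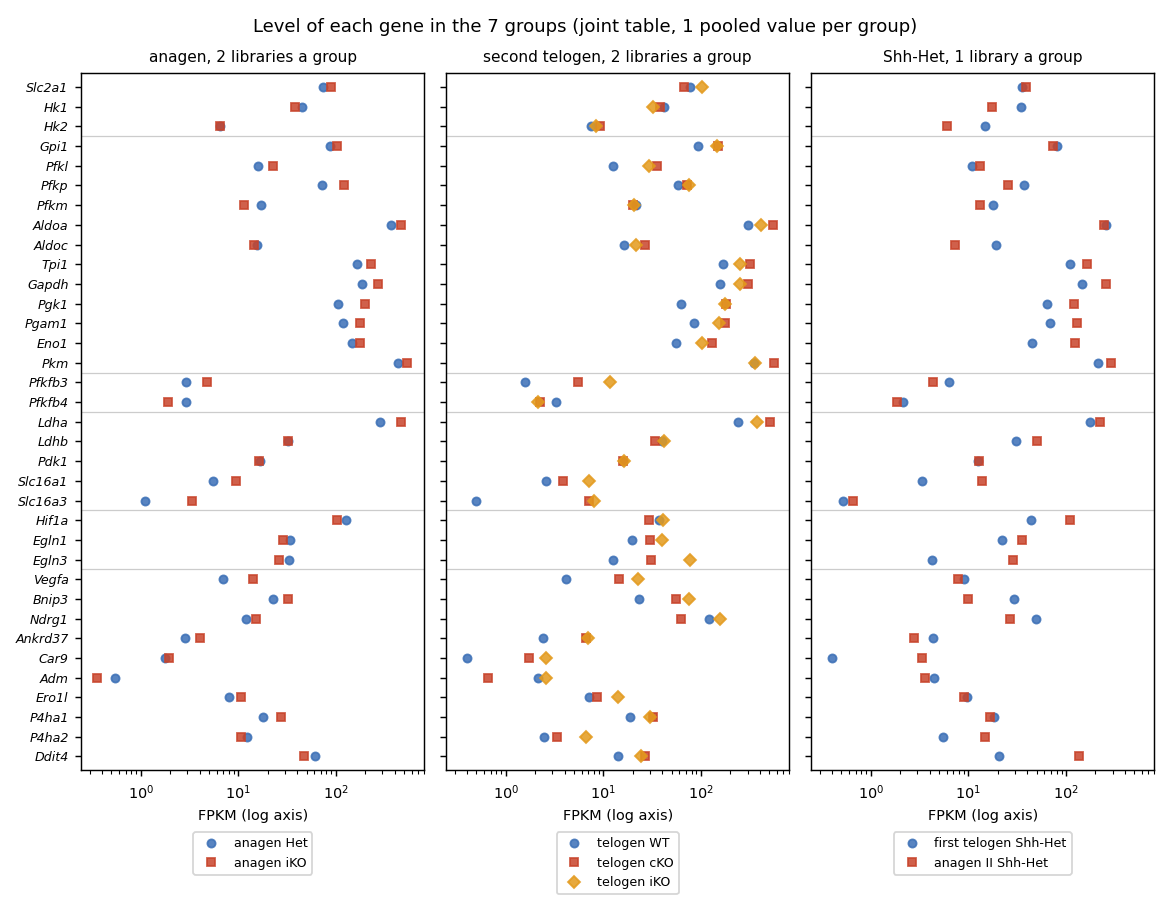
Level of each of the 35 genes (rows, grouped by role) in FPKM on a log axis, in anagen, second telogen and the Shh-Het groups, 1 pooled value per group. Slc16a3 stands at 0.501 in telogen WT and at 7.16 and 7.95 in the telogen knockouts, and Hif1a is lower in the second telogen groups than in the anagen groups.

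**Figure D2:**
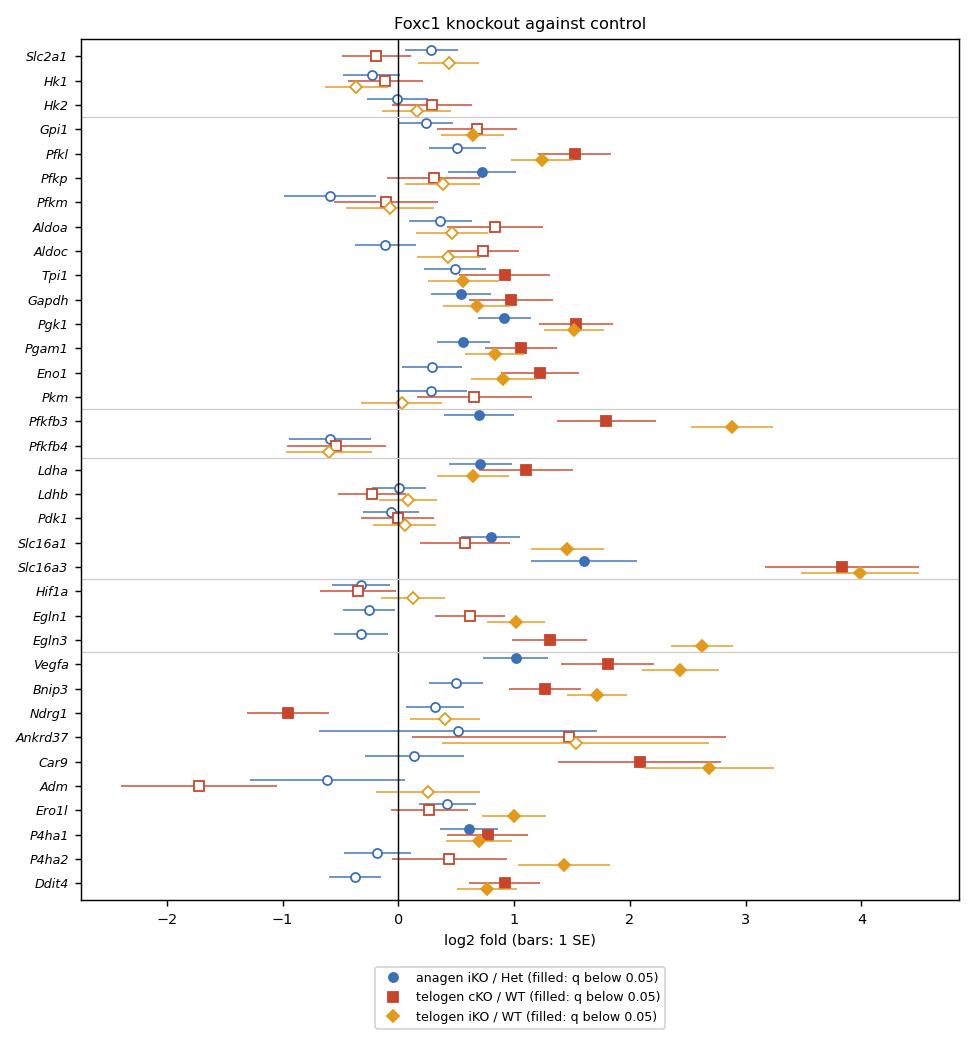
Authors' log2 fold of each gene in anagen iKO over Het, telogen cKO over WT and telogen iKO over WT, with bars of 1 SE and filled symbols for a deposited q below 0.05. Slc16a3 lies farthest to the right and the glucose entry genes at the top lie around 0.

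None of the 3 genes of glucose entry was called in any of the 3 knockout comparisons. Slc2a1, the glucose transporter GLUT1, was at 73.5 FPKM in anagen Het, 89.4 in anagen iKO, 76.8 in telogen WT, 67.6 in telogen cKO and 104 in telogen iKO. Hk1 and Hk2, the hexokinases that trap glucose in the cell, spanned 32.1 to 44.8 FPKM and 6.44 to 9.22 FPKM in those groups. Their log2 folds over the 3 comparisons ran from -0.36 to 0.43, with SEs of 0.23 to 0.34.

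Lower down the pathway, Pgk1, Pgam1 and Gapdh, enzymes of the pay-off phase, were called higher in every knockout group. Pgk1, which makes the first ATP of glycolysis, stood at 104.9 FPKM in anagen Het, 197 in anagen iKO, 62.4 in telogen WT, 181 in telogen cKO and 178 in telogen iKO. All 3 knockout groups thus lay above both control groups, by 0.91 ± 0.23 (SE) on the log2 scale in anagen, 1.53 ± 0.32 in telogen cKO and 1.51 ± 0.26 in telogen iKO. Pgam1, the phosphoglycerate mutase, was at 119, 176, 85.1, 177 and 152 FPKM in the same order of groups. Gapdh, which feeds Pgk1, was at 187, 272, 155, 305 and 248 FPKM. In both genes the control of each stage was below its knockouts. Gapdh is often used as a reference gene, and here its authors' log2 fold was 0.54 ± 0.26 in anagen iKO, 0.97 ± 0.36 in telogen cKO and 0.68 ± 0.29 in telogen iKO.

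Eno1 (enolase), Pfkl (liver-type phosphofructokinase) and Tpi1 (triose phosphate isomerase) were called higher in both telogen knockouts but not in anagen iKO. Eno1 was at 55.1 FPKM in telogen WT, 129 in telogen cKO and 103 in telogen iKO, against 145 in anagen Het and 177 in anagen iKO. Pfkl went from 12.4 in telogen WT to 35.7 and 29.3, and from 15.8 to 22.5 FPKM in anagen, where the 2-group table did not call it and the joint table did. Tpi1 was at 164, 229.7, 169, 320.0 and 249 FPKM in anagen Het, anagen iKO, telogen WT, telogen cKO and telogen iKO. Phosphofructokinase is the committed step of glycolysis, and its other subunits went differently: Pfkp, the platelet type, was called higher in anagen iKO alone (72.8 to 120.0 FPKM), and Pfkm, the muscle type, was called in none (17.1 and 11.4 in anagen, 20.2 to 21.7 in second telogen). Gpi1, the phosphoglucose isomerase, was called higher in telogen iKO, at 146 FPKM against 93.6 in telogen WT, with 150.0 in telogen cKO, where the 2-group table did not call it. Pkm, the pyruvate kinase and the most abundant enzyme of the set in anagen Het (436 FPKM), was not called in any knockout comparison, and the aldolases Aldoa and Aldoc were called only in telogen cKO in the joint table. Aldoa stood at 364 FPKM in anagen Het, 468 in anagen iKO, 302 in telogen WT, 541 in telogen cKO and 416 in telogen iKO. Counted by group, 4 of 12 enzymes were called higher in anagen iKO, 6 in telogen cKO and 7 in telogen iKO, and none lower. The telogen cKO count is from the 2-group table, and the joint table, from which the telogen iKO count comes, also called Gpi1, Aldoa and Aldoc higher in telogen cKO. Hk1, Pfkp, Pfkm and Tpi1 each overlap another gene model at their locus, and Gapdh, Eno1, Pkm and Ldha have near-identical copies or pseudogenes elsewhere, so reads may be shared.

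Pfkfb3 and Pfkfb4 set the level of fructose 2,6-bisphosphate, the strongest activator of phosphofructokinase, and only the first was higher. Pfkfb3 was at 2.91 FPKM in anagen Het, 4.72 in anagen iKO, 1.59 in telogen WT, 5.52 in telogen cKO and 11.7 in telogen iKO. The 3 knockout groups lay above anagen Het and telogen WT, with log2 folds of 0.70 ± 0.30, 1.79 ± 0.43 and 2.88 ± 0.36. Pfkfb4 was at 2.89, 1.92, 3.26, 2.25 and 2.15 FPKM and was not called. The ratio of Pfkfb3 to Pfkfb4 in FPKM was accordingly 1.01 in anagen Het, 0.487 in telogen WT, 2.46 in both anagen iKO and telogen cKO and 5.44 in telogen iKO. The Shh-Het libraries, in which Foxc1 was at 42.6 and 22.1 FPKM, held Pfkfb3 at 6.29 FPKM in first telogen, above anagen iKO and telogen cKO, and at 4.29 in anagen II, with ratios to Pfkfb4 of 2.95 and 2.29.

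Lactate genes held the largest fold of the set. Slc16a3, the transporter MCT4 that exports lactate from glycolytic cells, was at 1.11 FPKM in anagen Het, 3.36 in anagen iKO, 0.501 in telogen WT, 7.16 in telogen cKO and 7.95 in telogen iKO. Its log2 fold was 1.60 ± 0.46 in anagen iKO, 3.83 ± 0.67 in telogen cKO and 3.99 ± 0.51 in telogen iKO. Slc16a1, the transporter MCT1, was called higher in anagen iKO (5.47 to 9.5 FPKM) and in telogen iKO (2.59 to 7.12), but stood at 3.88 FPKM in telogen cKO without a call. Slc16a3 amounted to 0.202 of Slc16a1 in anagen Het and 0.193 in telogen WT, and to 0.353, 1.85 and 1.12 of it in anagen iKO, telogen cKO and telogen iKO.

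Ldha, which turns pyruvate into lactate, was at 282 FPKM in anagen Het, 461 in anagen iKO, 238 in telogen WT, 512 in telogen cKO and 372 in telogen iKO. Ldhb, the subunit that favours the reverse reaction, lay between 32.2 and 42.0 FPKM in these groups with no call. The ratio of Ldha to Ldhb was 8.76 in anagen Het, 14.3 in anagen iKO, 5.98 in telogen WT, 15.1 in telogen cKO and 8.85 in telogen iKO. Pdk1, the kinase that keeps pyruvate out of the mitochondrion and a textbook HIF target, lay between 15.7 and 16.9 FPKM in all 5 groups. Its log2 folds were -0.07 ± 0.24, -0.01 ± 0.32 and 0.05 ± 0.27.

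Hif1a RNA was not called in any knockout comparison. It was at 128 FPKM in anagen Het and 102 in anagen iKO, and at 37.0, 29.1 and 40.4 in telogen WT, telogen cKO and telogen iKO. Egln3, a HIF hydroxylase that HIF itself induces, was at 32.9 and 26.3 FPKM in anagen Het and iKO, but at 12.5 in telogen WT, 31.0 in telogen cKO and 76.9 in telogen iKO. It was therefore called higher in both telogen knockouts and not in anagen, where its value was lower. Egln1, the main oxygen-sensing hydroxylase, was at 34.1, 28.6, 19.7, 30.3 and 39.9 FPKM. It was called higher in telogen iKO, and in telogen cKO in the joint table but not in the 2-group table.

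Among the other hypoxia-induced genes, Vegfa, the endothelial growth factor, was at 6.97 FPKM in anagen Het, 14.1 in anagen iKO, 4.14 in telogen WT, 14.6 in telogen cKO and 22.4 in telogen iKO. The 3 knockout groups exceeded anagen Het and telogen WT, with log2 folds of 1.02 ± 0.28, 1.81 ± 0.40 and 2.44 ± 0.33. P4ha1, a catalytic subunit of collagen prolyl hydroxylase, was likewise called in all 3 (17.9 to 27.3 FPKM in anagen, 18.6 to 31.9 and 30.1 in telogen). Its paralogue P4ha2 was called in telogen iKO alone, at 6.58 FPKM against 2.44 in telogen WT and 3.32 in telogen cKO. Bnip3, a mitophagy receptor, rose from 23.1 FPKM in telogen WT to 55.6 and 75.7 in the knockouts and stood at 22.7 and 32.2 in anagen Het and iKO. Car9, a cell-surface carbonic anhydrase, was at 0.405 FPKM in telogen WT against 1.72 in telogen cKO and 2.60 in telogen iKO, and at 1.77 and 1.94 in anagen. Ddit4, an inhibitor of mTORC1, went from 14.2 FPKM in telogen WT to 26.9 and 24.1, but was at 61.3 in anagen Het and 47.3 in anagen iKO.

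Ndrg1, a stress-induced gene often used as a hypoxia marker, was called lower in telogen cKO, at 62.0 FPKM against 120 in telogen WT, while telogen iKO stood at 158. Adm, the vasodilator peptide adrenomedullin, was at 2.16, 0.658 and 2.57 FPKM in telogen WT, telogen cKO and telogen iKO. It was below 1 FPKM in anagen Het and anagen iKO. It had no call in the authors' 2-group telogen table, whereas the joint table called it lower in telogen cKO. Ero1l, an oxidase of the endoplasmic reticulum, was called higher in telogen iKO alone, at 14.1 FPKM against 7.08. Ankrd37, a HIF target of little known function that overlaps a neighbouring gene model, was at 2.39 FPKM in telogen WT and 6.66 and 6.93 in the telogen knockouts, with SEs above 1 on the log2 scale and no call.

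The anagen and telogen cKO comparisons share no library. Both are among the knockout comparisons for which the genes were picked, so their overlap is a description and supports nothing. In both, 8 of the 35 genes were called higher: Gapdh, Pgk1, Pgam1, Pfkfb3, Ldha, Slc16a3, Vegfa and P4ha1. Of the 13085 genes tested in both, 2.22% were called higher in both. At a stricter deposited q below 0.01, Gapdh, Pgam1, Pfkfb3 and P4ha1 lost their anagen call, and Tpi1, Car9 and P4ha1 their call in telogen cKO.

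Genes of neighbouring pathways were counted from lists that hold none of the 35. Of the tested members of the other glycolysis list (14 genes), 1, 2 and 1 were called higher in anagen iKO, telogen cKO and telogen iKO, and 1, 0 and 1 lower. Slc2a4, the insulin-responsive glucose transporter, rose from 1.06 to 2.71 FPKM in anagen iKO in the authors' deposited anagen table. Pdk2, another pyruvate dehydrogenase kinase, fell from 17.3 to 10.5 FPKM there, and from 36.3 to 23.1 in telogen iKO against WT in the joint table. None of 11 tested HIF pathway regulators, Arnt, Vhl and Epas1 among them, was called in anagen iKO or telogen cKO, and 1, the ubiquitin ligase gene Siah1a, was called higher in telogen iKO.

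Hypoxia-induced genes outside the set were called higher in 6 of 28 cases in anagen iKO, 8 of 26 in telogen cKO and 14 of 27 in telogen iKO, and lower in 1, 1 and 3. Bhlhe40, a transcriptional repressor of the circadian and hypoxia responses, was at 5.27 FPKM in anagen Het, 12.9 in anagen iKO, 12.1 in telogen WT, 24.9 in telogen cKO and 60.9 in telogen iKO. Higd1a, a mitochondrial protein induced by hypoxia, was at 14.3 FPKM in telogen WT against 42.0 and 43.2 in the knockouts. Car12, a relative of Car9, was at 29.9 and 60.3 FPKM in anagen Het and iKO and at 11.1, 36.5 and 19.1 in telogen WT, cKO and iKO. Anln, also on this list, encodes anillin, a protein of cell division, and was at 6.16, 28.2, 2.48, 15.7 and 8.87 FPKM. Selenbp1, a selenium-binding protein, was called lower in both telogen knockouts (8.34 FPKM in WT, 2.22 and 3.37 in the knockouts).

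Genes of mitochondrial pathways were counted in the same way. Of 23 genes of the tricarboxylic acid cycle and pyruvate dehydrogenase, 0, 0 and 2 were called in anagen iKO, telogen cKO and telogen iKO. The 2 were Idh2 and Ogdh, both lower, with 5.88% of all tested genes lower there. Of the oxidative phosphorylation genes, 3 of 28 were higher in anagen iKO (Ndufa4, Cycs and Cox5a, with log2 folds of 0.50 to 0.61). Over all tested genes, 5.18% were higher there. None of 29 was called in either telogen knockout. Called or not, 24, 28 and 13 of 29 had a higher value in anagen iKO, telogen cKO and telogen iKO. A lower value was found for 5, 1 and 16. Pentose phosphate and gluconeogenesis held 1 call in the 3 comparisons, Fbp1, lower in anagen iKO. The medians of the log2 ratio over tested genes were 0.06, 0.19 and 0.09 for the tricarboxylic acid cycle list and 0.14, 0.29 and -0.07 for oxidative phosphorylation. Myc, which can drive glycolytic genes, was at 21.8 and 20.3 FPKM in anagen Het and iKO, at 98.6 in telogen WT and at 49.0 and 139 in telogen cKO and iKO, and was called lower in telogen cKO.

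**Figure D3:**
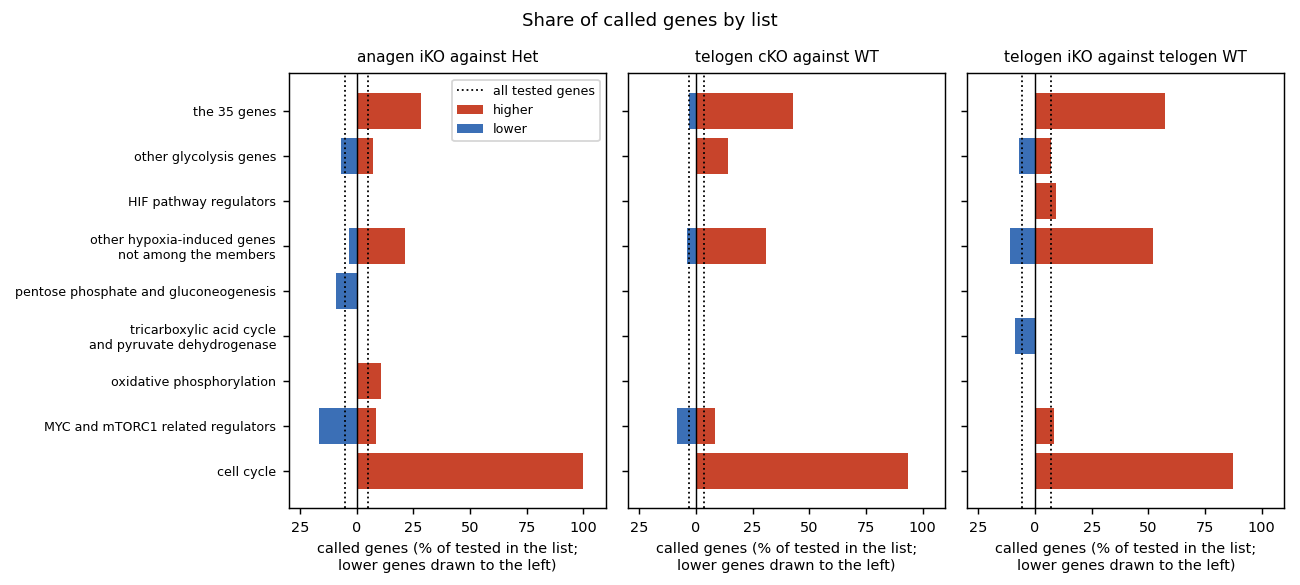
Share of the tested genes of each list called higher (red, right) or lower (blue, left) at a deposited q below 0.05 in the 3 knockout comparisons, with dotted lines at the share over all tested genes. The cell cycle list and the hypoxia-induced genes outside the set extend past the dotted line for higher genes. Other lists pass a dotted line too, such as other glycolysis genes and MYC and mTORC1 related regulators, with 1 or 2 called genes. Oxidative phosphorylation does so for higher genes in anagen iKO, with 3 called genes. The 35 genes, shown on top, were chosen for being high here.

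Cell cycle genes moved with the knockout in the same comparisons. Of 16, 16 were called higher in anagen iKO, 15 in telogen cKO and 14 in telogen iKO. Their summed level was 251 FPKM in anagen Het, 719.8 in anagen iKO, 148 in telogen WT, 355 in telogen cKO and 283 in telogen iKO. Genes of the immediate early response, which also rise when tissue is dissociated, were listed with the heat shock genes Hspa1a and Hspa1b, 11 in all. Of these, 5 were called lower in anagen iKO, Hspa1a and Hspa1b among them, and 3 in telogen cKO. In telogen iKO 1 was higher and 2, Hspa1a and Hspa1b, lower. Their summed level was 2181 FPKM in anagen Het, 1608 in anagen iKO, 13806 in telogen WT, 5509 in telogen cKO and 17302 in telogen iKO. The part of either list in the levels of the 35 genes was not tested.

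Telogen was also compared with anagen within control cells and within knockout cells. These stage comparisons are not those that chose the genes, but each shares groups with them: a choice for rising in knockout cells favours low telogen WT and high telogen iKO values, so the stage values are not independent of it. In control cells, telogen WT against anagen Het, 12 of the 35 were lower in telogen and 2 higher, against 11.9% of 13932 tested genes lower and 13.5% higher. The median log2 ratio was -0.26, beside 0.00 over all tested genes. These groups differ in genotype, strain, age and sex and in Cre and tamoxifen as well as in stage, which cannot be told apart. Hif1a fell by 1.79 ± 0.29 on the log2 scale (q = 0.000444, authors' deposited table), from 128 to 37.0 FPKM. Both hydroxylases fell with it, Egln3 by 1.40 ± 0.26 and Egln1 by 0.79 ± 0.25. The deepest falls were those of P4ha2 (-2.32 ± 0.39), Car9 (-2.12 ± 0.58) and Ddit4 (-2.11 ± 0.26). Of the glycolytic enzymes Pgk1 (-0.75 ± 0.25) and Eno1 (-1.40 ± 0.29) fell, as did the transporters Slc16a1 and Slc16a3, Pfkfb3 and Vegfa. Ndrg1 rose from 12.1 to 120 FPKM (3.31 ± 0.29 on the log2 scale) and Adm from 0.543 to 2.16.

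The same stages were compared in Foxc1 knockout cells. Foxc1 itself was called higher in telogen iKO (3.17 FPKM) than in anagen iKO (1.32). In telogen iKO against anagen iKO, which share driver, sex and strain but not age, 9 of the 35 were higher in telogen and 5 lower, against 17.6% and 15.5% of 13787 tested genes, and the median log2 ratio was 0.21 beside 0.01 over all. Hif1a fell here too, from 102 to 40.4 FPKM (-1.34 ± 0.28), as did Eno1, Pfkp, P4ha2 and Ddit4. Pfkm (11.4 to 20.7 FPKM) and Aldoc (14.5 to 21.8) rose. Ndrg1 and Adm rose again, Ndrg1 from 15.1 to 158 FPKM. Lower in telogen in both pairs were thus 4 genes (Hif1a, Eno1, P4ha2 and Ddit4) and higher in both 2 (Ndrg1 and Adm), against 8.25% and 10.4% of the 13491 genes tested in both.

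A further 4 genes, Egln3, Pfkfb3, Slc16a3 and Vegfa, were called in opposite directions, lower in telogen among controls and higher in telogen among knockouts. Of the 13491 genes tested in both pairs, 30 (0.222%) did so. Egln3 fell from 32.9 to 12.5 FPKM in control cells and rose from 26.3 to 76.9 in knockout cells (1.55 ± 0.26). Pfkfb3 fell from 2.91 to 1.59 in the first pair and rose from 4.72 to 11.7 in the second. Slc16a3 went from 1.11 to 0.501 FPKM and from 3.36 to 7.95, and Vegfa from 6.97 to 4.14 and from 14.1 to 22.4. Slc16a3 and Vegfa lost the control-pair call at a q below 0.01. Bnip3 was level in controls (0.02 ± 0.26) and rose by 1.24 ± 0.25 in knockout cells.

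The difference between both stage changes was computed per gene from the joint table over 4 groups that share no library. It equals the knockout effect in telogen iKO minus that in anagen iKO, both of which chose the genes, so it is given as a description and nothing is read from the counts. The difference was 2.95 ± 0.37 on the log2 scale for Egln3, 2.19 ± 0.49 for Pfkfb3, 2.54 ± 0.73 for Car9 and 2.39 ± 0.69 for Slc16a3. Egln1 gave 1.27 ± 0.36, Bnip3 1.22 ± 0.36 and Vegfa 1.42 ± 0.45. All but Vegfa were past the threshold used over all 13016 genes, which 1.62% of those genes passed. With telogen cKO in place of telogen iKO, from the authors' deposited 2-group tables, the difference was 1.63 ± 0.40 for Egln3, 1.29 ± 0.38 for Ddit4 and 2.23 ± 0.81 for Slc16a3. Egln3 alone was past the threshold there, as were 0.99% of 13033 genes.

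**Figure D4:**
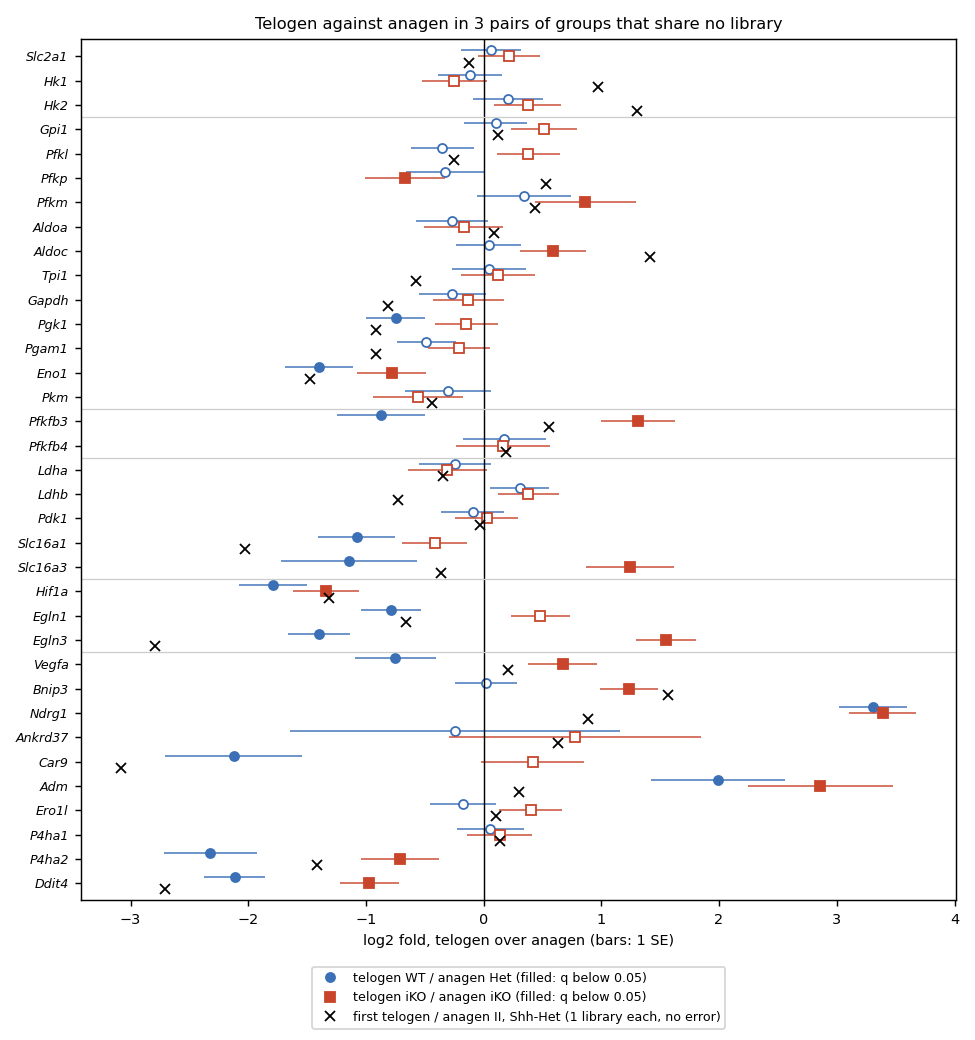
Authors' log2 fold of telogen over anagen for each gene in control cells (telogen WT over anagen Het), in Foxc1 knockout cells (telogen iKO over anagen iKO) and in Shh-Het cells (first telogen over anagen II), with bars of 1 SE for the first pair and the second and filled symbols for a deposited q below 0.05. Hif1a lies left of 0 in all 3 pairs, whereas Egln3, Pfkfb3, Slc16a3 and Vegfa lie left for controls and right for knockout cells.

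Cell cycle genes fell in telogen in both pairs, 15 of 16 among controls and 16 of 16 among knockouts. Their summed level among knockouts went from 719.8 to 283 FPKM. In that pair 9 of the 35 genes were called higher, against 17.6% of 13787 tested genes. Called lower were 5, Pfkp, Eno1, Hif1a, P4ha2 and Ddit4, against 15.5%. Any link of the 35 genes to the cell cycle was not tested. Of the 11 immediate early and heat shock genes, 9 rose in each pair, while Hspa1a fell in both and Hspa1b among knockouts. Myc rose from 20.3 to 139 FPKM in knockout cells. Oxidative phosphorylation genes were lower in telogen iKO than in anagen iKO in 10 of 29 cases and higher in 1. Of the HIF regulators, Epas1 (7.95 to 2.15 FPKM in controls, 8.0 to 2.74 in knockouts) and Vhl (10.7 to 3.79 and 11.2 to 3.23) fell in telogen in both pairs. Arntl, Crebbp and Ep300 rose in both, and Siah1a rose among knockouts, so that 3 of 11 tested regulators were higher and 2 lower in controls, and 4 higher and 2 lower in knockouts.

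The Shh-Het pair gives values without replicates. From anagen II to first telogen, Hif1a went from 109 to 43.8 FPKM, Egln3 from 28.9 to 4.19, Ddit4 from 135 to 20.7 and P4ha2 from 14.7 to 5.52. Pfkfb3 went from 4.29 to 6.29 FPKM, Vegfa from 7.74 to 8.95 and Bnip3 from 9.81 to 29.1, so Pfkfb3 and Vegfa were higher in telogen here, unlike in the control pair. Slc16a3 was at 0.662 and 0.516. Of the 33 members above 1 FPKM in both libraries, 6 were at least 2-fold lower in first telogen and 3 (Hk2, Aldoc and Bnip3) at least 2-fold higher, against 8.76% and 11.7% of 11603 genes. By value alone, 10 of the 35 were lower and 9 higher in telogen in all 3 pairs, shares near the 26.6% and 30.9% over 13357 genes. Fibroblast markers were high in both Shh-Het libraries, as given above, and the part of such cells was not tested.

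The 2 telogen knockouts were also set against each other. In telogen iKO against telogen cKO, 9 of the 35 were higher and none lower, against 7.53% of 13711 tested genes higher and 7.35% lower. They were Slc2a1, Pfkfb3, Slc16a1, Egln3, Vegfa, Ndrg1, Adm, Ero1l and P4ha2. Egln3 stood at 76.9 against 31.0 FPKM (1.31 ± 0.26), Ndrg1 at 158 against 62.0 (1.35 ± 0.29) and Adm at 2.57 against 0.658 (1.97 ± 0.56). Slc2a1 and Vegfa lost the call at a q below 0.01. Of 27 tested hypoxia-induced genes outside the set, 5 were higher and 4 lower, with a median log2 ratio of 0.04. None of the 12 glycolytic enzymes was called, and 10 of their 12 values were lower in telogen iKO. Pgk1 was at 178 and 181 FPKM (-0.02 ± 0.27) and Slc16a3 at 7.95 and 7.16 (0.15 ± 0.34). Foxc1 itself was called higher in telogen iKO (3.17 against 1.66 FPKM). Driver, strain, age and sex differ between both groups and cannot be told apart. Of the 11 immediate early and heat shock genes, 7 were higher in telogen iKO and 2, Hspa1a and Hspa1b, lower. Cell cycle genes were lower in 7 of 16 cases.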

How the data were processed

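TruSeq mRNA libraries were made from sorted cells, 12 in all, per the labels' protocols. TopHat, Cufflinks, Cuffdiff and build mm9 are named, with no version, in the submitters' processing notes. The authors deposited 3 tables with 1 pooled FPKM per gene and group (libraries pooled by Cuffdiff), a log2 fold, a test statistic (a score), a p-value and a q-value, per the file headers. Depth is unknown, since no counts were used. The q-value of the joint table was adjusted over all 21 comparisons, and tables were scaled separately.

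Folds and calls (deposited q below 0.05) came from the 2-group tables for anagen and for telogen cKO, and otherwise from the joint table. The SE is the log2 fold divided by the statistic and is approximate. Differences of 2 folds were tested as z, two-sided, with Benjamini-Hochberg adjustment over all genes tested (pandas 2.3.3, SciPy 1.17.1), after tests on simulated data. The labels name a mouse for each library, and p-values rest on 2 libraries per group. A symbol on several rows keeps its row with the highest mean FPKM. Promoters were matched by symbol, Ero1l by its RefSeq synonym, to 34 of the 35 genes, and Ndrg1 had no entry. Other genes were named per list and comparison, up to 4 called ones with at least 1 FPKM in both groups, by lowest q, then larger fold. Members, lists and tests were chosen with earlier results of these data known. Alternatives were another q threshold, a 1.5-fold minimum, a 1 FPKM minimum, another table or adjustment, and pseudocounts of 0.1 and 5.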

Additional observations from a re-analysis of the deposited data

Results flagged for a closer look

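The log2 effect of Foxc1 loss was compared between telogen and anagen. The genes were chosen for these same knockout values, so the differences are a description and support nothing. With telogen iKO the difference was 2.95 for Egln3, 2.19 for Pfkfb3, 1.27 for Egln1, 2.54 for Car9, 2.39 for Slc16a3 and 1.22 for Bnip3, each past the threshold of 0.05 set for the adjusted p over all genes. With telogen cKO it was 1.63 for Egln3, the only one past that threshold. Telogen iKO and telogen WT cells also differ in strain, age, sex, Cre driver and tamoxifen, which cannot be told apart from the knockout.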

How the results depend on the processing

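Most values held under the alternatives, and none reversed its direction. At a q below 0.01, 3 counts were classed as moved, and 1 each with a 1 FPKM minimum and with the joint table. A 1 FPKM minimum also made 2 single-gene results stronger and 1 weaker, as did adjusting q within the comparison. The count of genes called in anagen iKO went from 10 to 6 at a q below 0.01. The count of genes whose knockout effect differs between telogen and anagen went from 1 to 2 with both folds from the joint table (Egln3 and Ddit4) and to 6 with telogen iKO in place of telogen cKO, an alternative chosen after seeing the data. For single genes, a q below 0.01 ended 18 calls over the 6 comparisons, a 1.5-fold minimum ended 3 (Gapdh and Pgam1 in anagen iKO, Tpi1 in telogen iKO), and the joint table added 6 (Pfkl in anagen, and Gpi1, Aldoa, Aldoc, Egln1 and, lower, Adm in telogen cKO). Tpi1 also lost its telogen iKO call when q was adjusted within that comparison. Medians of the log2 ratio kept their sign under other pseudocounts, a 1 FPKM minimum and centring on all genes, the widest move being from 0.21 to 0.13 in telogen iKO against anagen iKO with a pseudocount of 5. No paired analysis was possible because the tables hold 1 pooled value per group, and for the same reason no library could be left out. The unknown depth limits genes near or below 1 FPKM, such as Car9 and Slc16a3 in telogen WT and Adm in anagen Het, anagen iKO and telogen cKO.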
